A study of Homo sapiens with 12 samples.

Results

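YAP1 and its paralogue WWTR1, whose protein is TAZ, are transcriptional coactivators, and TEAD1, TEAD2, TEAD3 and TEAD4 are the DNA-binding factors that carry them to their target genes. VGLL3 and VGLL4 are Vestigial-like cofactors that bind the same TEAD proteins, and VGLL4 competes with YAP1 for them. When Hippo signalling is on, the LATS kinases phosphorylate YAP1 and TAZ, which are then held in the cytoplasm by 14-3-3 proteins or degraded. When it is off, both enter the nucleus and switch on growth and matrix genes. Control of this kind acts on the proteins, and the data here are transcript levels. These 8 genes were taken by symbol from a table of 20979 entries, in which each stood on 1 line; 7 of them were among the 12276 entries tested, and VGLL3 was too low.

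RNA-seq of polyA RNA was done on 12 libraries from 3 established human kidney lines, 48 h after transfection with siRNA at 25 nM. Each line received 2 independent siRNAs against PTPN14 (called PTPN14-1 and PTPN14-2 after the sample titles, which the descriptions number the other way round), a LATS siRNA, and a non-targeting control siRNA. CAKI-1 and A704 are kidney cancer lines; HK2 was made by immortalising cells of healthy human kidney. Each line and siRNA gave 1 library, so a siRNA was set against control over 3 lines and a line against another over 4 libraries. The labels say nothing on repeat cultures, and p-values reflect how far libraries differed, which may be technical. PTPN14 is a tyrosine phosphatase that binds YAP1. The series is on altered Hippo signalling in a rare kidney carcinoma, and LATS and PTPN14 both restrain YAP1.

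Values are FPKM, fragment counts scaled to transcript length and library depth, so levels can be set against each other between genes. Effective depth, read from the whole-read steps of low values in short single-exon genes, came to between 17000000 and 23350000 fragments per library, as an estimate. PTPN14 fell to between 21.4 and 37.5% of control in the 6 PTPN14 libraries, and LATS1 to between 22.5 and 30.7% in the 3 LATS libraries. The labels do not say which LATS gene was the target, and LATS2 stood at 98.2 to 122% of control there. Cells of all 3 lines are labelled epithelial. KRT8, KRT18 and KRT19, keratins of simple epithelia, and PAX8, a renal transcription factor, were above 1 FPKM in every library. The adhesion genes varied: CDH1 was above 1 FPKM in all libraries of A704 alone, and EPCAM in all libraries of HK2 alone. Endothelial and leukocyte markers summed to at most 0.50 FPKM, and fibroblast markers to at most 2.47 FPKM in the cancer lines and 9.60 FPKM in HK2, where DCN led.

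Promoter sequences are printed for the 3 genes that the results turn on: YAP1 and WWTR1, the coactivators, and TEAD2, whose level separated the lines. They are from RefSeq (GRCh38.p14), each running from 250 bases before to 50 bases after an annotated start; the table held 6 of the 8 genes, without TEAD1 and TEAD4. Capitals mark the core TEAD motif GGAATG, or CATTCC on the other strand. The YAP1 window lies at chr11:102110197-102110496, plus strand. The 2 WWTR1 windows lie at chr3:149703224-149703523 and chr3:149657976-149658275, and the 2 TEAD2 windows at chr19:49362367-49362666 and chr19:49361468-49361767, all on the minus strand.
YAP1: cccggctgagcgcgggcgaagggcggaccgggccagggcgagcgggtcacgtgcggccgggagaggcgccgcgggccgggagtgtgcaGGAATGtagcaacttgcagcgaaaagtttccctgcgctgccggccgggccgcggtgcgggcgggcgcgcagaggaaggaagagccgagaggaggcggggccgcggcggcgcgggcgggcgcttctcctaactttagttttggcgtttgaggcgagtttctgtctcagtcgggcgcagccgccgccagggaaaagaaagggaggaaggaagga
WWTR1, upstream start: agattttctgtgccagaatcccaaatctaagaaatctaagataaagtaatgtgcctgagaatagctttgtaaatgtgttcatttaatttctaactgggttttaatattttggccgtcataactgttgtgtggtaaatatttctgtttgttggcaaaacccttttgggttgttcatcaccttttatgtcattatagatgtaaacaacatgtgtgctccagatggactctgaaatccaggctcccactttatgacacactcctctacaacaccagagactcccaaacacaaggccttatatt
WWTR1, downstream start: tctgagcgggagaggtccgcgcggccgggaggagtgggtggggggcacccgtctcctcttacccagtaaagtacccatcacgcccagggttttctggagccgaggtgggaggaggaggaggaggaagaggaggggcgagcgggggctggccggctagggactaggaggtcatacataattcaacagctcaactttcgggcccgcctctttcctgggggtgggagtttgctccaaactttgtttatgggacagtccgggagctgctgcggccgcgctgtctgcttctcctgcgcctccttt
TEAD2, upstream start: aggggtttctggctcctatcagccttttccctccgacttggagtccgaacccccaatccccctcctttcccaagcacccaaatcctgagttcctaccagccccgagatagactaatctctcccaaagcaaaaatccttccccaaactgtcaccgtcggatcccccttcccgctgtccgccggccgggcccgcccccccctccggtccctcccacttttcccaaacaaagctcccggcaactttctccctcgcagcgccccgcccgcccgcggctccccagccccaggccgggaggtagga
TEAD2, downstream start: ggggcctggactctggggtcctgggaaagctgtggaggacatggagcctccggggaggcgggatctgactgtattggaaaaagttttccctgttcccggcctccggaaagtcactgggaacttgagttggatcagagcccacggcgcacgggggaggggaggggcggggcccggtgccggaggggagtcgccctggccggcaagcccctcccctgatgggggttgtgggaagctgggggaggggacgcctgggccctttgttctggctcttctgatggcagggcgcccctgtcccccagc
The motif was found once, in the YAP1 window, 162 bases before the start. It was absent from the other 11 windows of the 6 genes found. Among all 35116 windows 14.0% held it, so 1 window of 12 is close to that background. The windows also differed in CpG: YAP1 held 40 CpG dinucleotides and the WWTR1 windows 1 and 18, against a median of 14 over the table. The TEAD2 windows held 19 and 14.

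WWTR1 was the most abundant of the 8 transcripts in every library. In CAKI-1 it stood at 88.6 FPKM with PTPN14-1, 79.1 with PTPN14-2, 57.0 with LATS and 60.4 with control siRNA. In A704 it stood at 78.5, 82.6, 67.8 and 76.3 FPKM in the same order of siRNAs. In HK2 it stood at 227.7, 171.3, 152.5 and 143.9 FPKM. Every HK2 library lay above every library of the cancer lines, while CAKI-1 and A704 overlapped. Its gene lies on chromosome 3 (149517235 to 149736714, minus strand, GRCh38).

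YAP1 (chromosome 11, 102110461 to 102233423, plus strand) was second in each line on the mean of its libraries. In CAKI-1 its level was 21.3 FPKM with PTPN14-1, 19.2 with PTPN14-2, 17.6 with LATS and 18.6 with control siRNA. In A704 it was 34.6, 31.6, 33.0 and 36.1 FPKM, and in HK2 27.9, 24.3, 22.6 and 28.0 FPKM, in that order. The ranges of the 3 lines did not overlap, with A704 highest and CAKI-1 lowest. The WWTR1 to YAP1 ratio also kept the lines apart. It ran from 3.23 to 4.16 in CAKI-1, from 2.05 to 2.61 in A704 and from 5.14 to 8.17 in HK2.

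TEAD1 and TEAD4 made up most of the TEAD transcript pool. TEAD1 (chromosome 11, 12674591 to 12944483, plus strand) varied little: its lowest, median and highest levels were 17.5, 18.7 and 18.7 FPKM in CAKI-1, 18.5, 20.7 and 21.3 in A704, and 17.4, 19.0 and 21.8 in HK2. These ranges overlapped between all 3 lines. TEAD4 (chromosome 12, 2959330 to 3040673, plus strand) was highest in A704. Its level was 15.3 FPKM with PTPN14-1, 16.8 with PTPN14-2, 19.7 with LATS and 16.5 with control siRNA in CAKI-1. It was 26.6, 28.2, 26.1 and 26.0 FPKM in A704 and 11.3, 15.9, 12.2 and 14.4 FPKM in HK2. All A704 values lay above those of the other lines, and CAKI-1 and HK2 overlapped.

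TEAD2 (chromosome 19, 49340595 to 49362457, minus strand) was all but missing from A704. There it was listed at 0.04 FPKM with PTPN14-1, 0.04 with PTPN14-2, 0.05 with LATS and 0 with control siRNA. In CAKI-1 its level was 8.56, 6.54, 8.66 and 8.15 FPKM, and in HK2 12.43, 14.18, 12.31 and 13.68 FPKM, in the same order. The 3 lines did not overlap, and no siRNA brought TEAD2 in A704 near the level of the other lines. TEAD3 (chromosome 6, 35473597 to 35497076, minus strand) was the lowest TEAD in CAKI-1 and HK2. Its level was 2.66 FPKM with PTPN14-1, 2.09 with PTPN14-2, 3.35 with LATS and 2.21 with control siRNA in CAKI-1, 5.26, 4.41, 4.29 and 4.23 in A704, and 5.90, 5.48, 6.12 and 5.97 in HK2. HK2 was highest and CAKI-1 lowest, with no overlap between lines.

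Because FPKM is per length, the 4 TEAD levels can be added. The sum ran from 44.02 to 50.35 FPKM in CAKI-1, from 50.42 to 52.9 in A704 and from 49.06 to 55.9 in HK2. All CAKI-1 sums lay below those of A704, while HK2 overlapped both. FPKM over all entries summed to 379221 to 396360 in CAKI-1, above the 344334 to 362828 of A704 and HK2. The TEAD sums were not scaled to those totals. Within the sum, the shares of TEAD4 and TEAD2 differed between lines. TEAD1 made up 37.1 to 42.4% in CAKI-1, 36.7 to 41.2% in A704 and 32.9 to 39.6% in HK2. TEAD4 made up 34.8 to 39.1%, 50.4 to 53.2% and 23.1 to 30.0% of the sum in the same lines, and TEAD2 14.8 to 19.4%, 0 to 0.0966% and 24.5 to 26.8%. YAP1 and WWTR1 together came to a median of 1.98 times the TEAD sum in CAKI-1, 2.18 times in A704 and 3.63 times in HK2. These are ratios of transcripts, and no protein was measured.

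**Figure D1:**
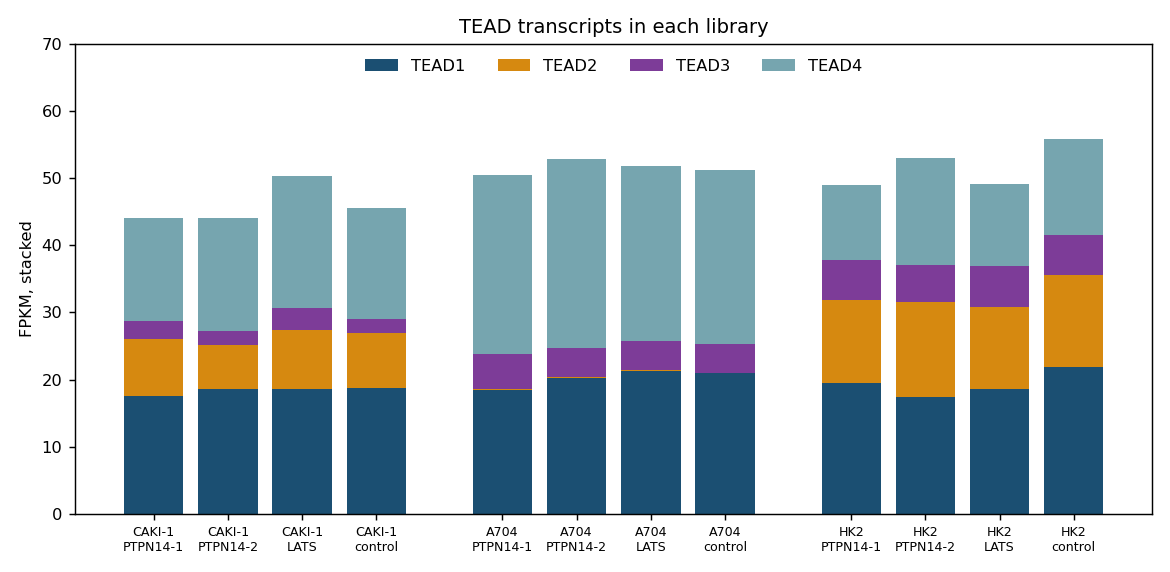
Stacked FPKM (y axis, linear) of TEAD1 to TEAD4 in each of the 12 libraries, 1 bar per library, grouped by line. The bars stand between 44.0 and 55.9 FPKM; the TEAD2 layer is barely visible in A704, where TEAD4 makes up 50.4 to 53.2% of each bar.

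VGLL4 (chromosome 3, 11556070 to 11771350, minus strand) was highest in CAKI-1. There its level was 10.0 FPKM with PTPN14-1, 10.6 with PTPN14-2, 14.3 with LATS and 12.5 with control siRNA. It was 5.70, 5.26, 5.46 and 5.39 FPKM in A704 and 4.32, 4.22, 4.36 and 4.23 in HK2, in that order. The 3 lines did not overlap. VGLL3 (chromosome 3, 86876388 to 86991119, minus strand) reached 0.09 FPKM at most, in CAKI-1 with PTPN14-1, and was listed at 0 in 4 libraries. Of the other Vestigial-like genes, VGLL1 was listed at 0 in all 12 libraries and VGLL2 reached 0.74 FPKM in CAKI-1 with PTPN14-1.

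Each line had its own order of levels below WWTR1. In CAKI-1, YAP1 was followed by TEAD1, TEAD4, VGLL4, TEAD2, TEAD3 and VGLL3. The ranges of YAP1 and TEAD1 overlapped there, as did those of TEAD1 and TEAD4. In A704 the order was YAP1, TEAD4, TEAD1, VGLL4, TEAD3, TEAD2 and VGLL3, with overlap between VGLL4 and TEAD3 and between TEAD2 and VGLL3. In HK2 it was YAP1, TEAD1, TEAD4, TEAD2, TEAD3, VGLL4 and VGLL3, with overlap between TEAD4 and TEAD2. Other neighbours did not overlap.

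**Figure D2:**
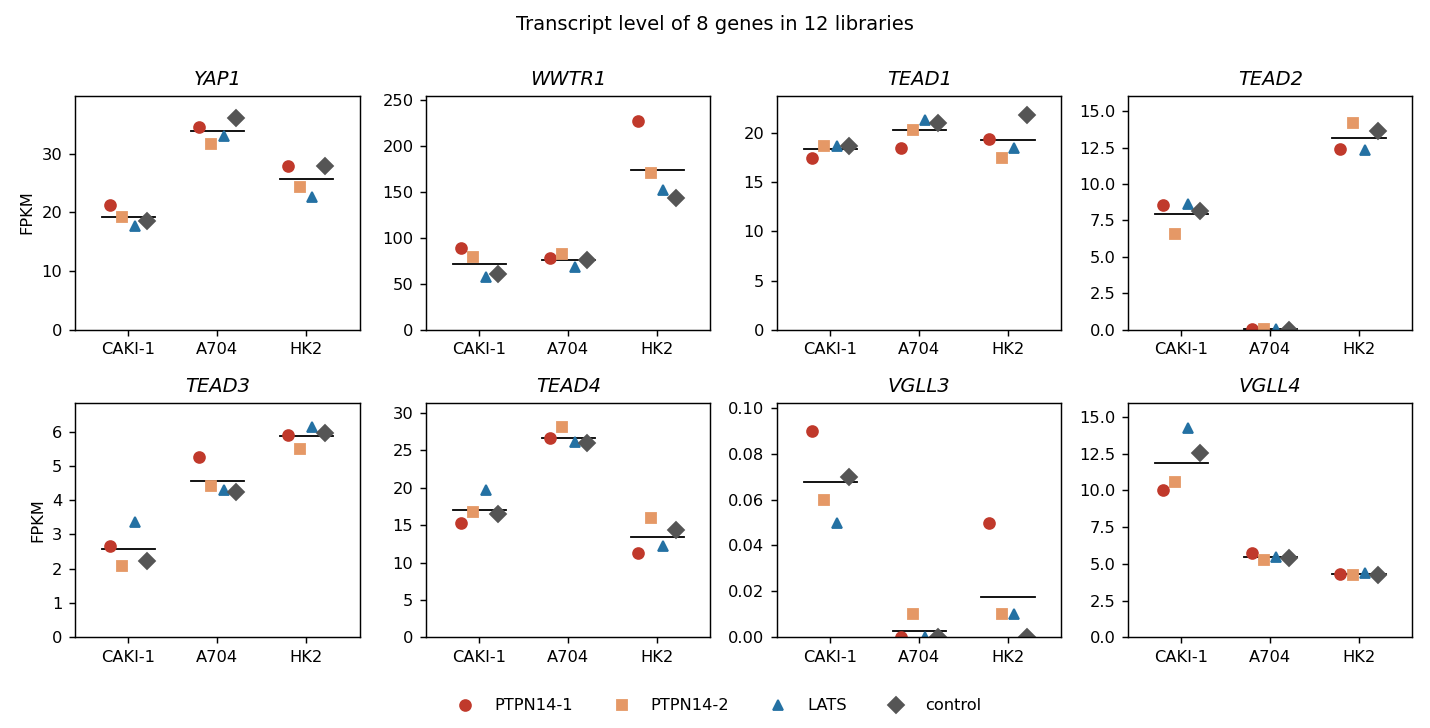
FPKM (y axes, linear and separate for each gene) of the 8 genes in CAKI-1, A704 and HK2, with 1 point per library coloured by siRNA and a bar at the mean of the 4 libraries. WWTR1 reaches 227.7 FPKM in HK2 with PTPN14-1, TEAD2 lies at or under 0.05 FPKM in A704, and VGLL3 stays at or under 0.09 FPKM in every library.

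The first comparison sets the lines against each other, over 4 libraries each and with siRNA as a block. Against HK2, WWTR1 was lower in both cancer lines. It averaged 71.3 ± 15.1 FPKM in CAKI-1 and 76.3 ± 6.25 in A704, against 173.9 ± 37.7 in HK2 (SD, n = 4 each). The log2 change against HK2 was -1.28 (SE 0.09, limma adjusted p = 2.09e-08) in CAKI-1 and -1.16 (SE 0.09, adjusted p = 4.31e-08) in A704. CAKI-1 and A704 differed in WWTR1 by -0.12 (95% interval -0.32 to 0.08), which did not pass (limma adjusted p = 0.253); without the A704 PTPN14-1 library it passed, at -0.23 (adjusted p = 0.0163).

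YAP1 was lower in CAKI-1 and higher in A704 than in HK2. It averaged 19.2 ± 1.55 FPKM in CAKI-1 and 33.8 ± 1.92 in A704, against 25.7 ± 2.68 in HK2 (SD, n = 4 each). The log2 change against HK2 was -0.40 (SE 0.07, limma adjusted p = 8.50e-05) in CAKI-1 and 0.39 (SE 0.07, adjusted p = 1.06e-04) in A704. CAKI-1 against A704 gave -0.79 (SE 0.07, adjusted p = 1.20e-07).

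TEAD4 was higher in both cancer lines than in HK2, by a log2 change of 0.33 (SE 0.09, limma adjusted p = 0.00412) in CAKI-1 and of 0.95 (SE 0.09, adjusted p = 2.66e-07) in A704. TEAD3 was lower in both, by -0.95 (SE 0.09, limma adjusted p = 3.36e-07) and -0.31 (SE 0.09, adjusted p = 0.00567). VGLL4 was higher in both, by 1.27 (SE 0.09, limma adjusted p = 1.06e-08) in CAKI-1 and 0.29 (SE 0.09, adjusted p = 0.00649) in A704. For TEAD3 and VGLL4 the ranges of the lines did not overlap, nor did those of TEAD4 in A704 and HK2, while TEAD4 in CAKI-1 and HK2 overlapped. How many of all entries had no overlap between lines was not counted, so non-overlap of a gene is descriptive.

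TEAD2 was lower in CAKI-1 than in HK2 by a log2 change of -0.66 (SE 0.09, limma adjusted p = 1.09e-05), at 7.98 ± 0.98 and 13.2 ± 0.92 FPKM (SD, n = 4 each). In A704 its change against HK2 was -3.77 (SE 0.09, adjusted p = 2.80e-13) on the log2(FPKM + 1) scale and -6.66 with a pseudocount of 0.1, so its size rests on the pseudocount. Since TEAD2 entered the test through CAKI-1 and HK2 alone, this difference had to appear. CAKI-1 against A704 also passed for VGLL4 (0.98), TEAD4 (-0.62), TEAD3 (-0.64) and TEAD2 (3.11). The TEAD2 difference had to appear here too, and came to 5.94 with a pseudocount of 0.1.

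TEAD1 did not pass between any lines. Its log2 change was -0.06 (95% interval -0.21 to 0.09) in CAKI-1 and 0.07 (-0.08 to 0.22) in A704 against HK2, and -0.13 (-0.28 to 0.02) in CAKI-1 against A704. After quantile normalisation the last of these passed, at -0.16 (limma adjusted p = 0.0427).

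Line differences of this kind were the rule in these data. In CAKI-1 against HK2, 6 of the 7 tested genes passed (2 higher, 4 lower), where 81.7% of all 12276 entries did (40.4% higher, 41.3% lower). In A704 against HK2, 6 passed (3 higher, 3 lower), where 84.6% of entries did (40.6% higher, 44% lower). In CAKI-1 against A704, 5 passed (2 higher, 3 lower), where 81.1% did (41.8% higher, 39.3% lower). The shares are near that background, so the counts say nothing particular about these genes. The counts with A704 include TEAD2, whose difference there had to appear. Of the spread in log2(FPKM + 1) over the 12 libraries, line accounted for 87.4 to 99.7% in 6 of the 7 genes, against a median of 91.8% over all tested entries. The 99.7% is that of TEAD2, which passed the filter through CAKI-1 and HK2 alone, so a high line share had to appear. TEAD1 was the exception among the 7, with shares of 30.7% by line, 31.4% by siRNA and 37.9% left over. The median siRNA share over all tested entries was 4.02%. The TEAD1 shares are of a small spread (17.4 to 21.8 FPKM), and TEAD1 passed in no siRNA comparison. They therefore show neither a siRNA effect nor its absence. Each tissue state here is 1 or 2 lines and the labels list 3 culture media for the 3 lines, so disease, medium and line cannot be told apart. In bulk RNA, fewer cells expressing a gene and less RNA per cell cannot be told apart either.

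The second comparison sets each siRNA against the control of the same line. WWTR1 rose with PTPN14-1: it stood at 147% of control in CAKI-1, 103% in A704 and 158% in HK2. The log2 change was 0.41 (SE 0.11, 95% interval 0.19 to 0.64, n = 3 libraries against 3, limma adjusted p = 0.0394). Under PTPN14-2 its level was 131, 108 and 119% of that in control, line by line, with a log2 change of 0.25 (95% interval 0.02 to 0.48) that did not pass (adjusted p = 0.295). All 6 PTPN14 libraries lay above the control of their line, but both siRNAs of a line share that control library. How many of all entries did so was not counted. The 2 siRNAs differed by 0.17 (95% interval -0.06 to 0.39, limma adjusted p = 0.332). With LATS siRNA WWTR1 stood at 94.3, 88.8 and 106% of control, a log2 change of -0.06 (95% interval -0.29 to 0.17). The PTPN14-1 call was close to the threshold: it ended after quantile normalisation (0.33, adjusted p = 0.128), without the low-value filter (adjusted p = 0.0922), and without any 1 of 8 libraries, at adjusted p from 0.0513 to 0.183. Those libraries were the CAKI-1 and HK2 control and PTPN14-1 libraries, the A704 and HK2 PTPN14-2 libraries and the A704 and HK2 LATS libraries.

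YAP1 did not pass with any siRNA. With PTPN14-1 it stood at 115% of control in CAKI-1, 96.0% in A704 and 99.6% in HK2, a log2 change of 0.04 (95% interval -0.13 to 0.21). With PTPN14-2 it stood at 103, 87.7 and 86.9%, a change of -0.11 (-0.28 to 0.06). With LATS siRNA it stood below control in all 3 lines, at 94.9, 91.5 and 80.7%, a change of -0.16 (-0.33 to 0.0032, limma adjusted p = 0.451). In all 6 PTPN14 libraries the WWTR1 to YAP1 ratio was above that of the same line's control, which both siRNAs share. In HK2 it was 8.17 with PTPN14-1, 7.04 with PTPN14-2, 6.75 with LATS and 5.14 with control siRNA, and in CAKI-1 4.16, 4.13, 3.23 and 3.25. In A704 it was 2.27, 2.61, 2.05 and 2.12.

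**Figure D3:**
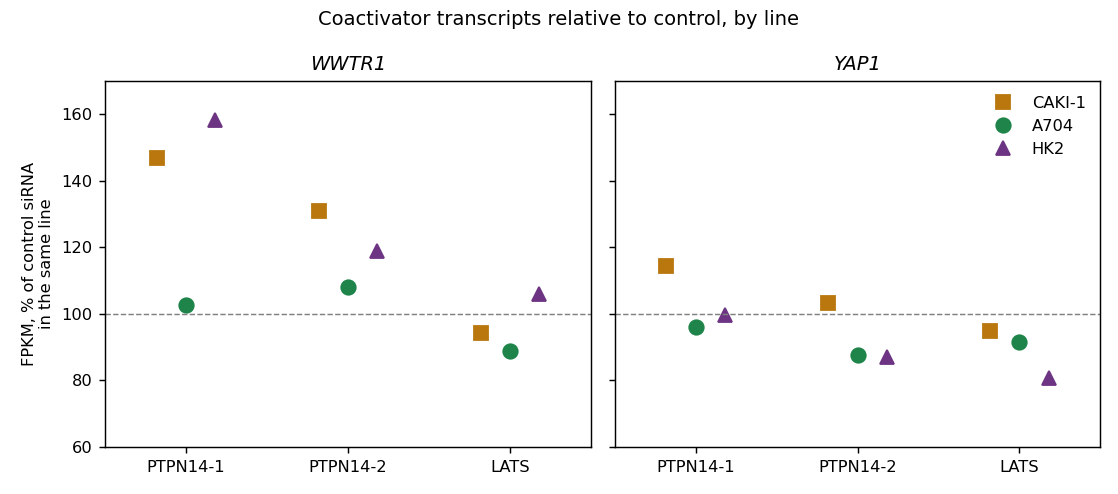
FPKM of WWTR1 and YAP1 as a percentage of the control siRNA library of the same line (y axis, linear, not starting at 0), with 1 point per line for each siRNA and a dashed line at 100%. WWTR1 lies above 100% in all 6 PTPN14 libraries, from 103 to 158%, and YAP1 lies below it in all 3 LATS libraries.

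The TEAD genes did not pass with any siRNA. TEAD1 lay below control in all 6 PTPN14 libraries, where both siRNAs of a line again share the control. It stood at 93.3, 88.0 and 88.9% in CAKI-1, A704 and HK2 with PTPN14-1 and at 99.7, 96.5 and 79.8% with PTPN14-2. Its log2 changes were -0.14 (95% interval -0.32 to 0.03) and -0.12 (-0.29 to 0.05). TEAD4 lay at 78.6% of control in HK2 with PTPN14-1 and at 110% with PTPN14-2, and over the lines the siRNAs differed by -0.22 (95% interval -0.44 to 0.0056, limma adjusted p = 0.192). TEAD3 had its widest departure from control in CAKI-1 with LATS siRNA, at 152%, where its FPKM was 3.35 against 2.21; over the lines its change was 0.16 (-0.06 to 0.39). TEAD2, left out for A704 where control was at 0, ran from 80.2 to 106% of control. The TEAD sum stood between 87.8 and 110% of control over the 9 siRNA libraries.

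VGLL4 lay at 79.9% of control with PTPN14-1 and 84.1% with PTPN14-2 in CAKI-1, and between 97.6 and 106% in A704 and HK2. Its log2 changes over the lines were -0.07 (95% interval -0.28 to 0.15) and -0.09 (-0.30 to 0.13), and 0.07 (-0.14 to 0.29) with LATS siRNA, where all 3 libraries lay above control, at 101 to 114%. Whether the effect of PTPN14 siRNA differed between lines was tested with the 2 PTPN14 siRNAs of each line taken as replicates of 1 condition, against 1 control library per line. The unadjusted limma p ran from 0.291 (VGLL4) to 0.842 (TEAD4), and 0 of the 7 genes and 0 of all 12276 entries passed (0%), with 106 entries at an unadjusted p under 0.05. That fit has 3 residual degrees of freedom, all from differences between the 2 siRNAs, and 11.7% of entries differed between these, so it says little on whether lines differed. The same question was not tested for LATS siRNA.

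In all, 1 of 7 tested genes passed with PTPN14-1, where 5.87% of all entries passed (2.39% higher, 3.47% lower). None of the 7 passed by limma with PTPN14-2, where 1.35% of entries did (0.448% higher, 0.904% lower). None passed with LATS siRNA, where 0.122% did (0.0244% higher, 0.0978% lower), or between the PTPN14 siRNAs, where 11.7% did (5.52% higher, 6.18% lower). At an unadjusted p under 0.05 the entries numbered 2801, 1837, 1381 and 3402 in these 4 comparisons, and of the 7 genes WWTR1 alone stood under it, with either PTPN14 siRNA. The siRNA comparisons share their 3 control libraries. Adjusted p of the 7 genes ran from 0.295 to 0.906 with PTPN14-2, from 0.451 to 0.995 with LATS siRNA and from 0.192 to 0.924 between the PTPN14 siRNAs. The upper ends of the 95% intervals reached 0.48 on the log2 scale with PTPN14-2 and 0.39 with LATS siRNA.

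**Figure D4:**
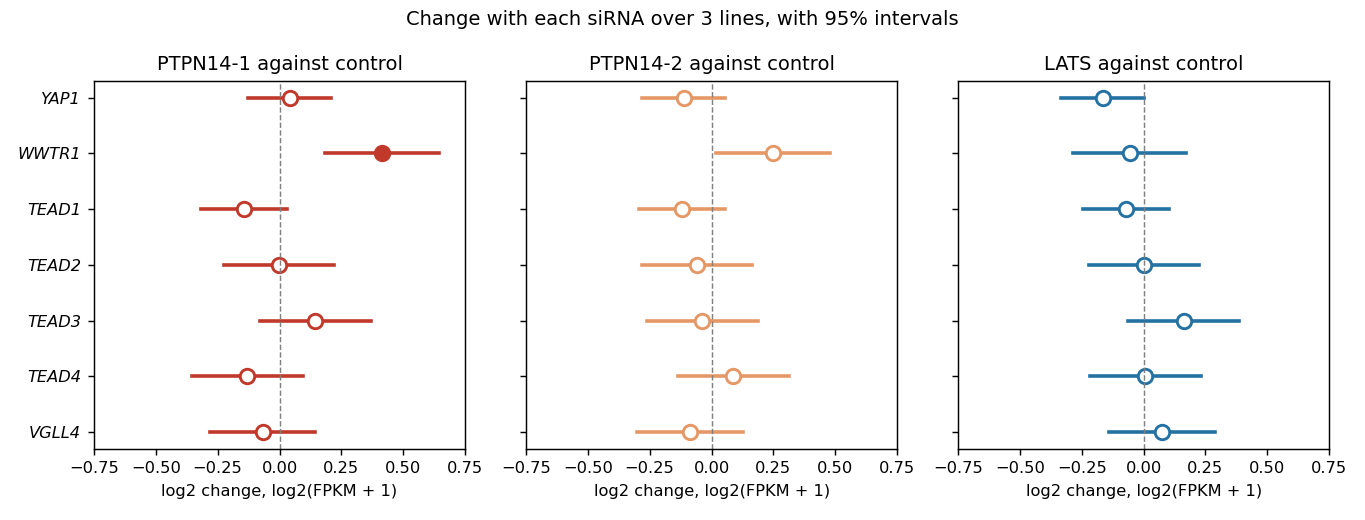
Log2 change (x axis, on the log2(FPKM + 1) scale) of the 7 tested genes with each siRNA against control over 3 lines; points are limma estimates, bars 95% intervals, and a filled point passed the threshold. WWTR1 with PTPN14-1, at 0.41, is the filled point.

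Genes around these in the pathway were counted from lists chosen with earlier results of these data known. The counts are therefore descriptive, and shares over all entries are given for scale. Among Hippo kinases and scaffolds, 6 of 24 rose and 2 fell with PTPN14-1 (median log2 change 0.15, against 0.0021 over all entries, of which 2.39% rose and 3.47% fell). AMOTL2, an angiomotin that binds YAP1, rose by 0.70 (SE 0.09) and LATS2 by 0.47 (SE 0.09), and WWC3, of the KIBRA family, fell by 0.56. PTPN14, the siRNA's target, was the other member that fell. AMOTL2, LATS2 and WWC3 changed by 0.17, 0.07 and 0.05 with PTPN14-2, and none of them passed. Each differed between the PTPN14 siRNAs (limma adjusted p = 0.00199, 0.0112 and 0.00242). With PTPN14-2, 2 of 24 fell, PTPN14 and the kinase cofactor MOB1B (-0.57, SE 0.12), where 0.904% of all entries fell. MOB1B changed by 0.16 with PTPN14-1 and did not pass, and it differed between the PTPN14 siRNAs (limma adjusted p = 0.00245). With LATS siRNA LATS1 alone fell (-1.36, SE 0.11), where 0.0978% of all entries fell. Of 13 genes for retention or turnover of YAP1 and TAZ, 2 rose with PTPN14-1, where 2.39% of all entries did. BTRC, part of the ubiquitin ligase that degrades YAP1 and TAZ, rose by 0.35 (SE 0.08), and YWHAB, a 14-3-3 protein, by 0.29 (SE 0.07). With PTPN14-2 BTRC changed by 0.28 and YWHAB by -0.02, and neither passed. CSNK1E, a casein kinase, fell by 0.40 (SE 0.07) with PTPN14-2, where 0.904% of all entries fell. With PTPN14-1 its change was -0.16 and did not pass. None of the 13 passed by limma with LATS siRNA, where 0.122% of all entries did.

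Of 13 measured nuclear partners, FOSL1, an AP-1 subunit that shares enhancers with TEAD, rose by 0.43 (SE 0.10) with PTPN14-1. JUN, its partner, fell by 0.44 (SE 0.09) with PTPN14-2. These were the only partners that passed with either, where 5.87% (PTPN14-1) and 1.35% (PTPN14-2) of all entries did. With the other PTPN14 siRNA both had the opposite sign. FOSL1 changed by -0.20 with PTPN14-2 and JUN by 0.09 with PTPN14-1, and neither passed. Both differed between the PTPN14 siRNAs (limma adjusted p = 0.00250 and 0.00240). With LATS siRNA 0 of 13 passed, against 0.122% of all entries. Between lines, RUNX2 was lower in CAKI-1 and A704 than in HK2, by -3.41 and -2.11 on the log2 scale. JUN was lower too, by -1.20 and -1.44, while RUNX1 was higher in both, by 1.38 and 1.15. Against HK2, 3 of the 13 partners were higher and 9 lower in CAKI-1, and the counts were the same in A704. Of all entries, 40.4% were higher and 41.3% lower in CAKI-1, and 40.6% and 44% in A704. Of 21 measured YAP1 and TAZ target genes, 9 rose with PTPN14-1 (median 0.39), where 2.39% of all entries rose. Among the 9 were NUAK2 by 0.91, AMOTL2 by 0.70 and CRIM1 by 0.71, and PTPN14, itself on that list, fell. AMOTL2, LATS2 and PTPN14 are on the list of Hippo kinases and scaffolds too, so they enter both counts. With PTPN14-2 CRIM1 alone rose, by 0.49, and PTPN14 alone fell, where 0.448% of all entries rose and 0.904% fell. The median was 0.07, against -0.0023 over all entries. Between the PTPN14 siRNAs, 9 of 21 targets were higher with PTPN14-1 and 1, PTPN14, was lower, where 5.52% and 6.18% of entries were. With LATS siRNA 0 of 21 passed by limma, against 0.122% of all entries, with a median of 0.12. Between lines the targets differed in both directions. CYR61 was lower in CAKI-1 and A704 than in HK2, by -2.84 and -2.36, while CTGF was higher in CAKI-1 than in A704 by 2.00 and ANKRD1 lower by -2.61.

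How the genes varied among themselves was described over the 12 libraries after subtracting the mean of each line. YAP1 and WWTR1 had a Pearson r of 0.51 and TEAD3 and VGLL4 of 0.56, and WWTR1 and VGLL4 had the lowest of the 21 pairs, at -0.65. Among 8141 entries with a mean of at least 5 FPKM, the closest patterns to WWTR1 were those of VPS36 (r = 0.98), VPS54 (0.97) and MYBL1 (0.97). Those closest to YAP1 were SON (0.94), FAM208B (0.93) and NAF1 (0.92), and to TEAD1 CLK4 (0.87), C5orf24 (0.81) and HPCAL1 (0.81). TEAD2 was closest to USP19 (0.86), CCNF (0.83) and NFYC (0.83), TEAD3 to CCM2 (0.95), GNPDA1 (0.94) and CD81 (0.93), TEAD4 to BRMS1 (0.94), GIPC1 (0.93) and MRPL49 (0.92), and VGLL4 to CD1D (0.96), SRPR (0.95) and IDH3G (0.92). TEAD2 hardly varied within A704 (0 to 0.05 FPKM), so its correlations rest mostly on CAKI-1 and HK2. The closest patterns were picked as the highest among 8141 entries, so high values had to appear. These correlations are descriptive: the points share libraries and depth, and the 3 controls weigh on every siRNA.

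Some values can hold reads of other genes. VGLL4 shares 1596 exonic bases with ATG7 on the opposite strand, at a mean of 5.46 FPKM, and TEAD2 shares 319 with CD37, at 0.486 FPKM. YAP1 and WWTR1 share 628 and 795 exonic bases with antisense RNAs, and YAP1 has 2 processed pseudogenes, YAP1P1 and YAP1P2. The kit marks strand, but the strand setting of the counting is not given in the labels used here.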

How the data were processed

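FPKM values in 1 table, as deposited by the authors, were the starting point; no header states the unit, and library sums of 344334 to 396360 with decimals bear on it. STAR 2.4.0g1 and the build GRCh38.p1 are named, per the submitters' processing notes. Counter, annotation and library scaling: not given in the sources used here. Of the symbols, 695 stand on more than 1 line and 29 entries carry dates; none of the 8 genes is among them. Depth was estimated by finding the read number at which values of single-exon genes became whole reads within the rounding, for 79.4 to 92.2% of these genes.

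Values were tested as log2(FPKM + 1), which understates changes of low genes, for the 12276 entries above 1 FPKM in at least 3 libraries. The test was limma 3.58.1 (R 4.3.3, statmod 1.5.0) with trend and robust moderation, line and siRNA as terms (6 residual degrees of freedom), and Benjamini-Hochberg adjustment over all entries at 0.05. Libraries of 1 line pair because they are the same cell line. Deviations from the siRNA means correlated at 0.958 to 0.983 within lines. These deviations hold the differences between lines, so high values had to appear and do not test the pairing. Line by PTPN14 effects came from 9 libraries. The scripts were tested on simulated data. Groups followed the sample titles. All 8 genes are named, with up to 4 genes per list and comparison with the smallest p among those that passed and the 3 closest patterns per gene; the genes and lists were chosen with earlier results of these data known. Coordinates are from GENCODE 29 (GRCh38). Alternatives were another pseudocount, no filter, quantile normalisation, no block, and leaving out libraries or lines.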

Additional observations from a re-analysis of the deposited data

How the results depend on the processing

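An estimated depth of 17000000 to 23350000 fragments and 1 library per line and siRNA limit what can be seen. Line comparisons kept their counts within 1.5 times in all settings tried. With a replicate block for line, as reported, 720, 166, 15 and 1437 entries passed with PTPN14-1, PTPN14-2 and LATS siRNA and between the PTPN14 siRNAs; without the replicate block 0 passed in each, and 0 of the 8 genes with PTPN14-1, since the lines then enter the spread. Without the low-value filter 355, 60 and 3 entries passed with PTPN14-1, PTPN14-2 and LATS siRNA, and 0 of the 8 genes with PTPN14-1; after quantile normalisation also 0 of these genes passed. The cause was not tested. Quantile normalisation moved the median of all entries by less than 0.1 (log2). Of 868 single-gene values under alternatives, 812 kept direction and side of the threshold, 13 lost the call (all WWTR1 with PTPN14-1, whose log2 change ran from 0.29 to 0.60 over all its alternatives, with 0.29 and limma adjusted p = 0.368 without HK2 and 0.35 and adjusted p = 0.231 without CAKI-1), 2 gained it and 41 turned direction, none of them called.

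Leaving out 1 library gave 200 to 830 entries with PTPN14-1: 268, 332 and 200 without the control library of CAKI-1, of A704 or of HK2, and 241 with HK2 PTPN14-1 left out. Leaving out 1 line gave 40 to 299, and the genes of the 8 that passed ran from 0 to 1. With PTPN14-2 it was 34 to 252 for libraries (34, 92 and 43 for those controls in that order, 44, 84 and 66 for the PTPN14-2 libraries, 252 for A704 PTPN14-1) and 14 to 50 for lines. With LATS siRNA it was 3 to 20 (3, 3 and 6 for the controls, 3, 6 and 6 for the LATS libraries, 8 for HK2 PTPN14-1) and 0 to 2 for lines. Between the PTPN14 siRNAs it was 742 to 1638 (742, 839 and 833 for the PTPN14-2 libraries, 876 for HK2 PTPN14-1) and 319 to 566 for lines.

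The values that turned direction lay near 0. With a pseudocount of 0.1, TEAD2 had 0.14 with PTPN14-1 and 0.075 with PTPN14-2. Over libraries and lines left out, values ran with PTPN14-1 from -0.060 to 0.060 for TEAD2, -0.14 to 0.046 for VGLL4 and -0.032 to 0.090 for YAP1. With PTPN14-2 they ran from -0.16 to 0.076 for TEAD2, -0.0047 to 0.17 for TEAD4 and -0.088 to 0.025 for TEAD3. With LATS siRNA they ran from -0.061 to 0.074 for TEAD2, -0.13 to 0.048 for WWTR1, -0.12 to 0.12 for TEAD4, -0.036 to 0.14 for VGLL4 and -0.11 to 0.0079 for TEAD1. Between the PTPN14 siRNAs they ran from -0.11 to 0.029 for TEAD1, -0.049 to 0.13 for VGLL4 and -0.088 to 0.17 for TEAD2. For the line by PTPN14 test a control library could not be left out, since the line then has no reference.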

Other observations

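The entry with the symbol TAZ is not the coactivator. In GENCODE 29 that symbol belongs to a gene on chromosome X, now TAFAZZIN, which encodes a mitochondrial enzyme of cardiolipin remodelling, and the coactivator TAZ stands in the table as WWTR1. The entry read 8.38 FPKM with PTPN14-1, 8.44 with PTPN14-2, 9.57 with LATS and 9.03 with control siRNA in CAKI-1, 11.6, 10.0, 11.3 and 11.5 in A704 and 4.60, 4.86, 6.74 and 4.78 in HK2. It was highest in A704 and lowest in HK2, with no overlap between the lines.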
